A study of Bos taurus with 6 samples.

Results

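The 9 genes described here encode mitochondrial enzymes of the citric acid cycle: CS, IDH2, IDH3A, IDH3B, OGDH, DLST, SUCLG1, FH and MDH2. They were matched by gene symbol as mitochondrial enzymes of the cycle outside the succinate dehydrogenase complex. The list was drawn up with earlier results of these data known. It leaves out 10 other genes of the cycle, which are described further on. All 9 were found among the 19163 genes of the count table, and all 9 passed the filter on low counts that left 13001 genes for testing. The RNA came from F7, a single line of bovine embryonic stem cells from in vitro fertilised Holstein Friesian embryos, at passage 15 in both groups. The 3 MC-F7 libraries were from cells on living mouse embryonic fibroblasts arrested with mitomycin C, with fresh medium every day. The 3 MT-F7 libraries were from cells on methanol-fixed, dead mouse embryonic fibroblasts, with fresh medium every other day. Feeder state and medium schedule therefore cannot be told apart. Both groups grew in an mTeSR1-based medium with FGF and the Wnt inhibitor IWR1. Before collection, dissociated cells were kept on gelatin and the floating cells were taken, a step that need not remove every feeder. The paper reports a higher rate of alignment to the bovine genome in MT-F7 than in MC-F7. It proposes that fixed feeders reduced feeder cell contamination. The part of such contamination in the enzyme values was not tested.

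The citric acid cycle takes the acetyl group of acetyl-CoA, joins it to oxaloacetate, and oxidises it stepwise to carbon dioxide while loading NADH and reduced flavin for the respiratory chain. Its intermediates also leave the mitochondrion as building blocks, citrate for lipid and acetyl-CoA supply in the cytosol among them. Alpha-ketoglutarate, made inside the cycle by the isocitrate dehydrogenases, is a co-substrate of the enzymes that demethylate histones and oxidise methylated DNA, and for this reason the cycle has drawn attention in pluripotent cells.

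Library totals ran from 21958386 to 24933430 counts. The 13 protein-coding genes of the mitochondrial genome took 16.3% to 28.3% of an MC-F7 library and 18.0% to 27.9% of an MT-F7 library, with the highest share of each group in its replicate 3. Replicate 3 also held the lowest value of its group for 7 of the 9 enzymes in MC-F7 and for 6 of 9 in MT-F7. The summed normalised read count (CPM, counts per 1e+06 after TMM scaling) of the pluripotency markers was between 936 and 1562 in MC-F7. In MT-F7 it was between 577 and 626. Most of this sum was POU5F1, with means of 1196 CPM in MC-F7 and 522 CPM in MT-F7. Of the 5 tested, 4 were lower in MT-F7 (POU5F1, NANOG, LIN28A and DPPA4), or 80% called beside 23.2% of all tested genes. SALL4 had a positive log2 fold change of 0.33 and was not called. The summed CPM of 10 fibroblast markers was 221 to 296 in MC-F7 and 338 to 393 in MT-F7. Most of this sum was COL1A1, with means of 205 CPM in MC-F7 and 268 CPM in MT-F7, which was not called. Among the 9 fibroblast markers tested, COL3A1, POSTN and PDGFRB were higher in MT-F7 and none was lower (33.3% called, beside 23.2% of all tested genes). Of those not called, THY1 had a negative log2 fold change (-0.32) and COL1A2 one of 0.039. FAP had no count in any MT-F7 library or in MC-F7 replicate 1. These marker differences move with the same contrast as the enzymes, and their part in the enzyme values was not tested. In bulk RNA, fewer cells of a type and less RNA per cell cannot be told apart.

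Expression of the cycle enzymes leaned towards lower values in MT-F7, but only 2 of the 9 passed the test. MDH2, the malate dehydrogenase that regenerates oxaloacetate, and IDH3A, the catalytic subunit of the NAD-dependent isocitrate dehydrogenase, were lower in MT-F7. No enzyme was higher, and 7 were not called. Fold changes had a negative sign for 8 enzymes and a positive sign for OGDH. The median log2 fold change of the 9 was -0.14, against -0.0026 over all tested genes, and their median absolute log2 fold change was 0.29 against 0.34.

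The share of enzymes called, 2 of 9 or 22.2%, was close to that of all genes. Of the 13001 genes, 23.2% passed an adjusted p of 0.05 in edgeR's quasi-likelihood test, 11.9% as higher and 11.3% as lower in MT-F7. The enzymes as a group were therefore not called more often than genes at large. Counted by library values alone, 4 enzymes had every MT-F7 library below every MC-F7 library and 1 had every MT-F7 library above. These 5 of 9 (55.6%) stand beside 40.0% of all tested genes without overlap, of which 20.1% lay below and 19.9% above.

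**Figure D1:**
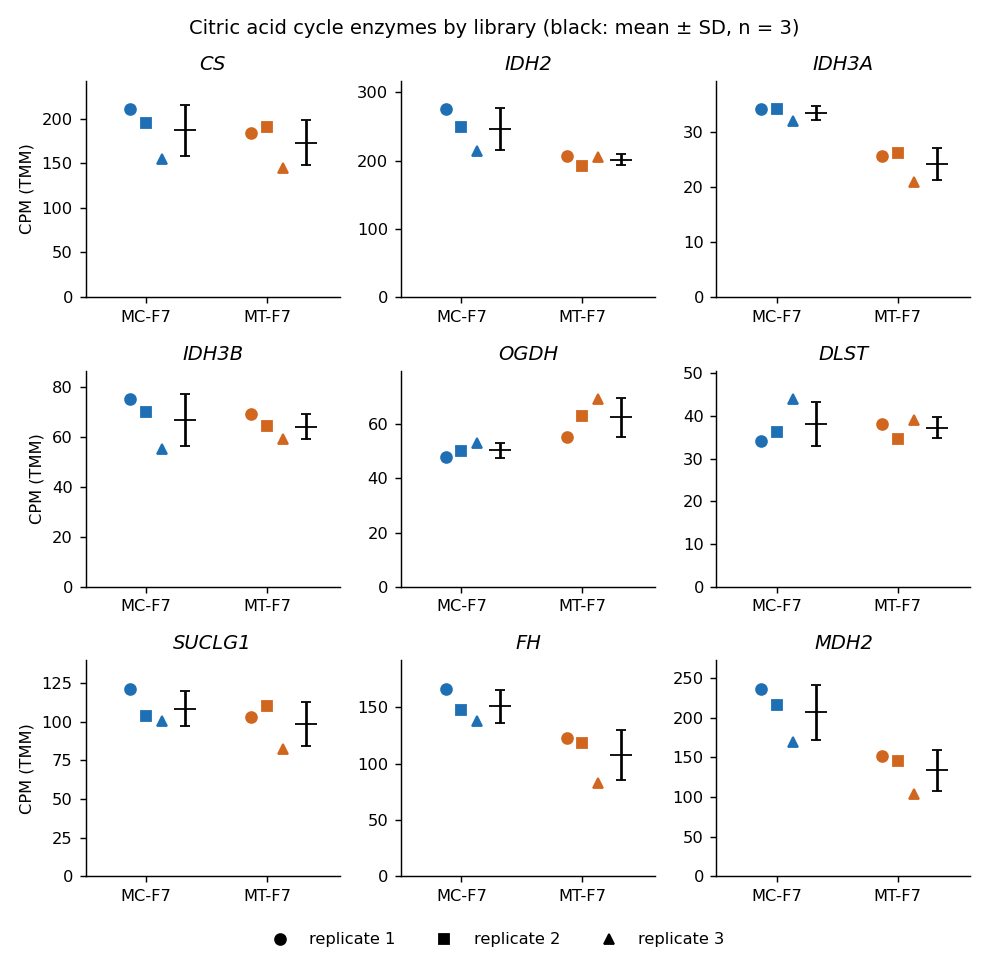
Normalised read counts (CPM, TMM-scaled, linear axes from 0) of the 9 citric acid cycle enzymes in each MC-F7 and MT-F7 library, with symbols for replicate number and black bars for the mean ± SD of 3 libraries. MDH2, FH, IDH3A and IDH2 have all MT-F7 points below all MC-F7 points, OGDH has them above, and replicate 3 is the lowest point of its group in most panels.

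CS, citrate synthase, joins acetyl-CoA to oxaloacetate and so opens the cycle. IDH2 is the mitochondrial NADP-dependent isocitrate dehydrogenase, which runs beside the NAD-dependent enzyme of the cycle. These were also the 2 members that the study assayed by RT-PCR, and the primers, each of 20 bases, are shown because they define which transcripts that assay reads. Values of that assay were left out.
CS forward: ccctgacagatccccgagtt
CS reverse: ggcagcagtttctggcattc
IDH2 forward: atggacggcgatgagatgac
IDH2 reverse: ccattggggctcttccacat

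CS measured 210.4, 195 and 155 CPM in the MC-F7 libraries and 184, 191 and 144 CPM in the MT-F7 libraries. The groups overlapped, and the lowest library of each was replicate 3. The log2 fold change of CS, MT-F7 over MC-F7 here and throughout, was -0.11 (95% interval -0.48 to 0.26, adjusted p = 0.686).

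IDH2 measured 275, 249.9 and 214 CPM in MC-F7 and 206, 192 and 205 CPM in MT-F7. Every MT-F7 library lay below the lowest MC-F7 library, and the MT-F7 values were tightly grouped at 201 ± 8.12 CPM (SD, n = 3) beside 246 ± 31.0 in MC-F7. The log2 fold change was -0.29 (95% interval -0.62 to 0.034) and did not pass the test (adjusted p = 0.185). With both libraries numbered 3 left out, a choice made after the values were seen, IDH2 did pass (adjusted p = 0.021).

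The NAD-dependent isocitrate dehydrogenase is built from a catalytic alpha subunit and from beta and gamma subunits; IDH3A and IDH3B are the alpha and beta genes. IDH3A measured 34.1, 34.1 and 32.0 CPM in MC-F7 and 25.5, 26.1 and 20.9 CPM in MT-F7. The groups did not overlap, and the MC-F7 libraries lay within a narrow band. IDH3A fell from 33.4 ± 1.20 to 24.2 ± 2.84 CPM (SD, n = 3), a log2 fold change of -0.47 (SE 0.16, edgeR adjusted p = 0.046). The call stood close to the threshold, and it held in only 1 of the 6 fits that left out a library, the fit without MC-F7 replicate 3. Leaving out MC-F7 replicate 1 or 2, or any MT-F7 library, gave adjusted p-values from 0.083 to 0.155. It was also lost with every gene of at least 1 count kept (0.060), with library size as the only scaling (0.069) and in the limma fits on TPM (0.146 to 0.216). IDH3B, the beta subunit, measured 75.1, 70.02 and 55.0 CPM in MC-F7 and 69.1, 64.1 and 59.0 CPM in MT-F7. Its MT-F7 values fell inside the MC-F7 range, with a log2 fold change of -0.059 (95% interval -0.40 to 0.29, adjusted p = 0.828).

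OGDH and DLST encode the decarboxylating and the succinyl-transferring components of the alpha-ketoglutarate dehydrogenase complex, which makes succinyl-CoA. OGDH was the only enzyme with a positive sign: 47.9, 49.997 and 53.2 CPM in MC-F7 and 55.2, 63.1 and 69.4 CPM in MT-F7. All MT-F7 libraries exceeded all MC-F7 libraries, and replicate 3 was the highest of each group, opposite to most of the other enzymes. The log2 fold change of 0.31 (95% interval -0.010 to 0.63) did not pass the test (adjusted p = 0.152), nor did it in any of the 17 alternative fits, in which it stayed positive. DLST measured 34.1, 36.2 and 44.0 CPM in MC-F7 and 38.2, 34.5 and 39.1 CPM in MT-F7. The groups overlapped fully, with a log2 fold change of -0.031 (95% interval -0.37 to 0.31, adjusted p = 0.909) whose sign turned in several alternative fits.

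SUCLG1, the shared alpha subunit of succinyl-CoA synthetase, which splits succinyl-CoA to succinate while making a nucleoside triphosphate, measured 121, 103 and 100.4 CPM in MC-F7. In MT-F7 it measured 103, 110.0 and 82.6 CPM. Replicates 1 and 2 of MT-F7 lay within the MC-F7 range and replicate 3 lay below it, and the log2 fold change was -0.14 (95% interval -0.48 to 0.21, adjusted p = 0.579).

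FH, fumarase, hydrates fumarate to malate, and MDH2 oxidises that malate to oxaloacetate. The transcripts of both closing steps had negative fold changes. FH measured 167, 148 and 138 CPM in MC-F7 and 123, 118 and 82.7 CPM in MT-F7. The groups did not overlap, and the log2 fold change was -0.48 (95% interval -0.86 to -0.11), but the adjusted p of 0.062 missed the threshold. FH passed in 4 of the 17 alternative fits, among them those with DESeq2 (0.040), without MC-F7 replicate 3 (0.047) and with both libraries numbered 3 left out (0.022).

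MDH2 measured 237, 216 and 169 CPM in MC-F7 and 152, 145 and 104 CPM in MT-F7. No MT-F7 library reached the lowest MC-F7 library, and replicate 3 was the lowest of both groups. The mean fell from 207 ± 34.6 to 134 ± 26.0 CPM (SD, n = 3), a level 64.6% of that in MC-F7, with a log2 fold change of -0.63 (SE 0.18, adjusted p = 0.026). The sign held in all 17 alternative fits and the call in 11. It was lost without MC-F7 replicate 1 (adjusted p = 0.085), without MC-F7 replicate 2 (0.101) without MT-F7 replicate 3 (0.051) and in the limma fits on TPM (0.157 to 0.218).

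**Figure D2:**
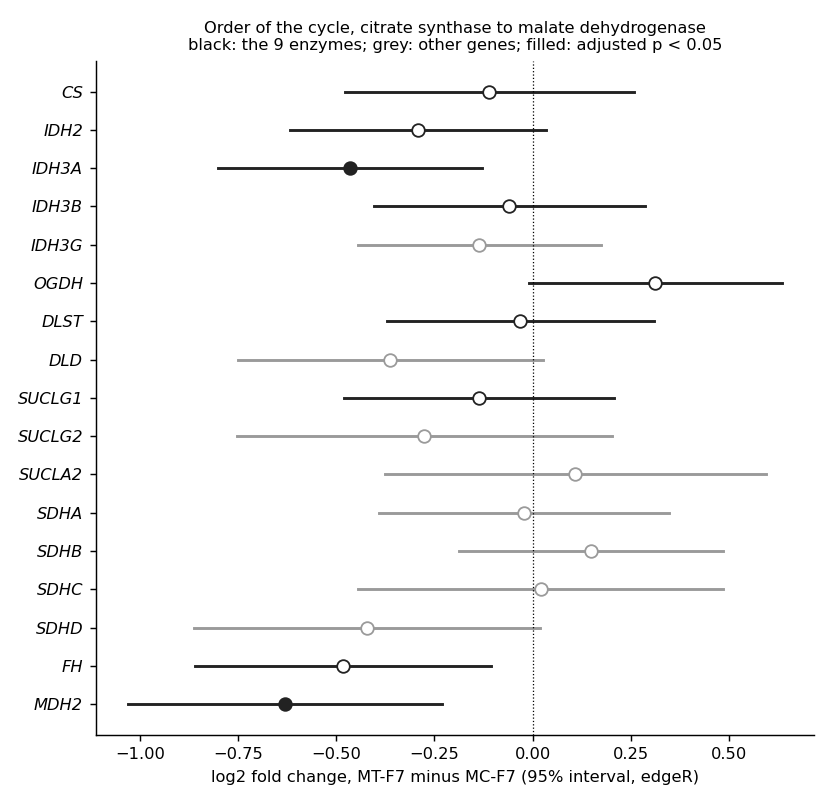
Log2 fold change, MT-F7 over MC-F7, with its 95% interval for the 9 enzymes and for 8 other genes of the cycle, without OGDHL, whose interval from -2.63 to 0.37 is off the scale; filled points passed an adjusted p of 0.05. The intervals of MDH2, IDH3A and FH lie wholly below 0, those of the other enzymes include 0, and OGDH alone among the 9 is positive.

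Summed, the 9 enzymes took 0.108% ± 0.013 (SD, n = 3) of an MC-F7 library and 0.0909% ± 0.011 of an MT-F7 library, and on this scale the groups overlapped. Relative to counts from outside the mitochondrial genome the share was 0.138% ± 0.0062 against 0.118% ± 0.0085, and the 3 MT-F7 libraries (0.125%, 0.119% and 0.109%) were all below the 3 MC-F7 libraries (0.141%, 0.142% and 0.1304%). These sums were not tested, and they are weighted towards MDH2, IDH2 and CS, which have the most counts.

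Levels of different genes can be set side by side only per transcript length, for which the deposited TPM values were used within each library. These values are not scaled for depth, so their means and SDs also carry differences in library depth. They serve to order genes within a group, not to compare a gene between groups. In MC-F7, MDH2 stood highest (33.2 ± 6.76 TPM) and IDH2 next (29.1 ± 4.70 TPM), an order that held in 3 of 3 libraries. In MT-F7, IDH2 (25.9 ± 0.907 TPM) had a higher mean than MDH2 (23.5 ± 5.43 TPM), but in only 2 of 3 libraries. FH stood next in MC-F7 at 15.8 ± 1.95 TPM, above SUCLG1 in 3 of 3 libraries. In MT-F7 it averaged 12.5 TPM (8.99 to 14.3), below CS in 3 of 3 libraries. SUCLG1 and CS could not be ordered in either group (13.4 and 13.2 TPM in MC-F7, 13.4 and 13.4 TPM in MT-F7). IDH3B followed at 8.94 ± 1.76 TPM in MC-F7 and 9.37 ± 1.07 TPM in MT-F7. The bottom of the order was held by IDH3A, DLST and OGDH, between 1.84 and 3.46 TPM in MC-F7 and between 2.50 and 3.17 TPM in MT-F7, and IDH3A and DLST kept their order in only 2 of 3 libraries of each group.

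Subunits of a complex and enzymes of the same reaction in another compartment were compared as ratios within a library, which cancel depth. Of 11 pairs, 4 had groups that did not overlap. The 40.0% without overlap given above is for CPM of single genes, and no such share was computed for ratios. With 3 libraries a group an exact permutation test cannot go below p = 0.1, so no ratio could pass, and the smallest p adjusted over the 11 pairs was 0.275. IDH3A stood at 0.351, 0.377 and 0.451 of IDH3B in MC-F7 and at 0.286, 0.315 and 0.275 in MT-F7. The ratio was lower in every MT-F7 library, by a log2 difference of -0.42 (two-sided exact permutation p = 0.1). Against IDH3G, the gamma subunit, the difference of IDH3A was -0.34 and the groups overlapped (exact permutation p = 0.2). OGDH stood at 0.660, 0.650 and 0.569 of DLST in MC-F7 and at 0.680, 0.859 and 0.833 in MT-F7, higher in every MT-F7 library, with a log2 difference of 0.33 (exact permutation p = 0.1). SUCLG1 relative to SUCLG2, its GTP-forming partner, differed by 0.13 with overlapping groups (exact permutation p = 0.6), whereas the ratio of the ATP-forming partner SUCLA2 to SUCLG2 was between 0.558 and 0.627 in MC-F7 and between 0.691 and 0.880 in MT-F7, without overlap (log2 difference 0.36, exact permutation p = 0.1).

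Ratios of the cytosolic to the mitochondrial malate dehydrogenase and NADP-dependent isocitrate dehydrogenase had positive differences with overlapping groups. MDH1, the cytosolic malate dehydrogenase, stood at 0.613, 0.598 and 0.497 of MDH2 in MC-F7 and at 0.864, 0.887 and 0.581 in MT-F7, so that MT-F7 replicate 3 overlapped with MC-F7 (log2 difference 0.43, exact permutation p = 0.3). IDH1, the cytosolic NADP-dependent isocitrate dehydrogenase, stood at 0.296, 0.314 and 0.214 of IDH2 in MC-F7 and at 0.434, 0.458 and 0.252 in MT-F7, again overlapping through replicate 3 (log2 difference 0.44, exact permutation p = 0.3). CS relative to ACLY, which splits exported citrate in the cytosol, differed by -0.099 with overlapping groups (exact permutation p = 0.4), as did IDH2 relative to IDH3A, by 0.19 (exact permutation p = 0.2).

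**Figure D3:**
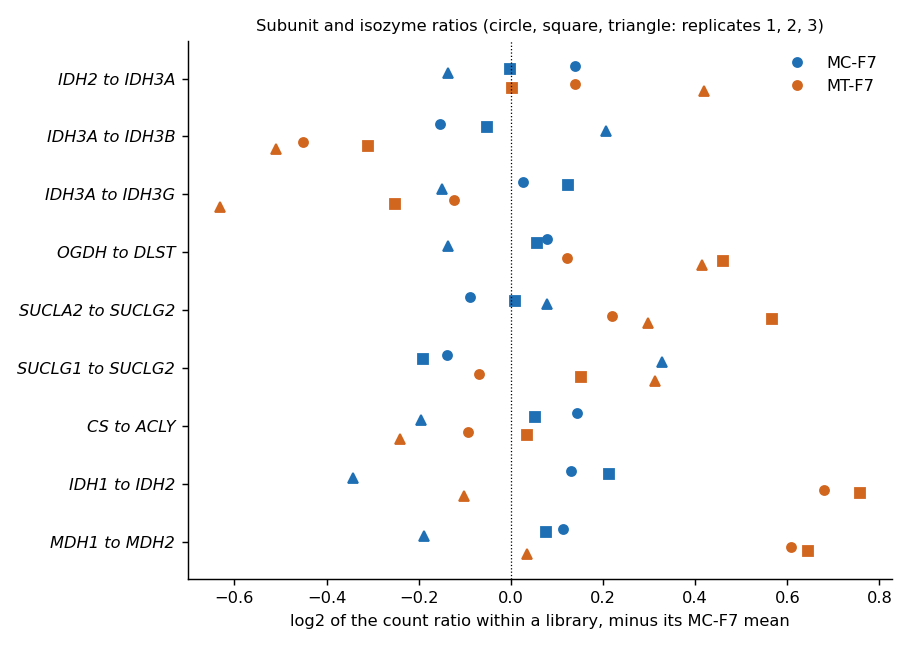
Log2 of the count ratio between the genes of a pair within each library, minus its MC-F7 mean, for 9 of the 11 pairs (OGDHL, which had few counts, is left out). OGDH to DLST and SUCLA2 to SUCLG2 lie higher in all 3 MT-F7 libraries, IDH3A to IDH3B lies lower in all 3, and the other pairs overlap.

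The remaining 10 genes of the cycle, among them DLD, SUCLG2, SUCLA2 and the succinate dehydrogenase subunits SDHA to SDHD, showed no called change in either direction. All 10 were tested and none had groups without overlap. Their median log2 fold change was -0.21, with 7 negative and 3 positive signs. The most negative apart from OGDHL, a low-count relative of OGDH, were SDHD (-0.42, 95% interval -0.86 to 0.018) and DLD, the dihydrolipoamide dehydrogenase shared by several dehydrogenase complexes (-0.36, 95% interval -0.75 to 0.025). DLD did pass with both libraries numbered 3 left out (adjusted p = 0.049). IDH3G, the gamma partner of IDH3A, had a log2 fold change of -0.14 (95% interval -0.45 to 0.17).

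Outside the mitochondrion, 1 of 5 cytosolic counterparts was higher and 1 lower (40% called, beside 23.2% of all tested genes). ACO1, which doubles as an iron-responsive RNA-binding protein, rose from 58.9 to 91.0 CPM on average (log2 fold change 0.63, SE 0.15, adjusted p = 0.0086), and the call was lost only without MC-F7 replicate 2 (0.063). ME1, the cytosolic malic enzyme that turns malate into pyruvate with the gain of NADPH, fell from 38.1 to 21.6 CPM (log2 fold change -0.82, SE 0.19, adjusted p = 0.0074), a call kept in all 6 fits that left out a library and lost in the 3 limma fits on TPM (0.072 to 0.098). MDH1, IDH1 and ACLY were not called.

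Around the entry of pyruvate, 3 of 13 tested genes (23.1%, beside 23.2% of all tested genes) were lower and none was higher in MT-F7. PDK1, a kinase that switches off pyruvate dehydrogenase, measured 35.3, 41.5 and 20.7 CPM in MC-F7 and 11.8, 14.8 and 11.3 CPM in MT-F7. It fell by 1.36 on the log2 scale (adjusted p = 0.0012), and the call held in all 6 fits that left out a library but not in the limma fits on unscaled TPM (0.055 and 0.076). PDHA1, a catalytic subunit of pyruvate dehydrogenase itself, was also lower (log2 fold change -0.59, adjusted p = 0.035). This call was lost without MC-F7 replicate 1 (0.055) or 2 (0.132) and without MT-F7 replicate 2 (0.107) or 3 (0.075). It was also lost in the limma fits (0.163 to 0.208). PDHB, DLAT and PDHX of the same complex were not called (log2 fold changes 0.070, -0.27 and 0.26). Nor were the kinases PDK2 (0.33) and PDK3 (-0.46). PDP2, a phosphatase that reactivates pyruvate dehydrogenase, was lower at under 2 CPM in every library (log2 fold change -2.31, adjusted p = 0.013). Its call was lost without MC-F7 replicate 2 (0.076) and in the limma fits (0.055 to 0.081). PC, pyruvate carboxylase, which refills oxaloacetate, had no overlap between groups, 91.0 to 106 CPM in MC-F7 and 113 to 143 CPM in MT-F7, and was not called (adjusted p = 0.109).

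Of 12 genes that refill the cycle or carry its intermediates out, 1 was higher and 1 lower (16.7% called, beside 23.2% of all tested genes). SLC25A10, the dicarboxylate carrier, measured 70.2, 65.9 and 70.8 CPM in MC-F7 and 48.2, 44.3 and 49.5 CPM in MT-F7. It was lower (log2 fold change -0.54, adjusted p = 0.014), although not without MC-F7 replicate 2 (0.054), MT-F7 replicate 1 (0.053) or MT-F7 replicate 2 (0.074). ME3, a mitochondrial malic enzyme, was higher at between 0.622 and 4.52 CPM (log2 fold change 1.46, adjusted p = 0.020), a call lost without MC-F7 replicate 2 (0.088) or MT-F7 replicate 2 (0.119) and in the limma fits (0.052 to 0.085). GLUD1 and GOT2, which link glutamate to alpha-ketoglutarate, had log2 fold changes of -0.55 and -0.43 that were not called (adjusted p = 0.080 and 0.079).

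Glycolysis, the pathway upstream, gave a scale for these values. Of 14 tested glycolytic genes, 13 were lower in MT-F7 and none higher (92.9% called, beside 23.2% of all tested genes). Their median log2 fold change was -1.21, against -0.14 for the cycle enzymes. LDHA, lactate dehydrogenase A, which diverts pyruvate to lactate, fell by 4.05 on the log2 scale, and the muscle-type phosphofructokinase gene PFKM was not called (-0.0028). The study singled out many glycolytic genes on these libraries, so their direction is not independent evidence. The difference between the lists was not tested.

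**Figure D4:**
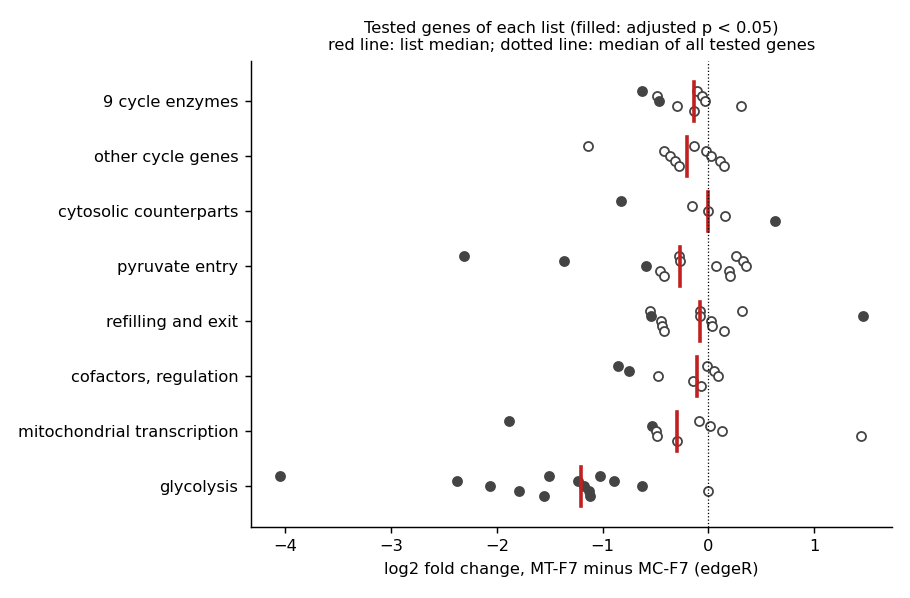
Log2 fold change, MT-F7 over MC-F7, of every tested gene in the cycle enzymes and in the lists around them, with filled points for an adjusted p under 0.05, a red line for the list median and a dotted line for the median of all tested genes. The glycolysis points lie far to the negative side with a median of -1.21, whereas the cycle enzymes centre on -0.14 and the other genes of the cycle on -0.21.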

How the data were processed

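RNA-seq libraries of 3 MC-F7 and 3 MT-F7 samples were used. The authors aligned reads with HISAT2 2.0.5 and counted them per gene with featureCounts 1.5.0-p3 (the genome build is not given in the sources used here). The deposited counts were whole numbers, matched by Entrez identifier to RefSeq symbols (19074 of 19163). The deposited TPM values were a gene-specific constant times the count in every library for 9681 of 9682 genes compared (tolerance 0.1%, at least 50 counts). Column sums were 154763 to 164394, so the values carry no scaling for depth. They were used for ratios and the order of genes within libraries, for group means beside that order, and in limma alternatives.

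Counts were filtered (filterByExpr, minimum count 10, total 15), TMM-scaled and tested with edgeR 4.0.16 quasi-likelihood F-tests in R 4.3.3, with Benjamini-Hochberg adjustment over 13001 genes, threshold 0.05. Intervals are 95%. Alternatives used DESeq2 1.42.0, limma 3.58.1, other scalings and filters, a replicate block and fits without each library. Ratios were tested by exact permutation. The script was tested on simulated data. Members and lists were chosen with earlier results of these data known. Named genes were all 9 members, the other genes of the cycle, and called genes of the neighbouring lists, with a few uncalled genes of those lists and the glycolysis and marker examples chosen after their values were seen.

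The labels do not say that replicates were separate cultures, so p-values measure only the spread between these libraries, which may be technical. Reads carry no molecular identifiers, and counting error is only part of the error. A few genes of the lists, with the values that need them, are not reported here.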

Additional observations from a re-analysis of the deposited data

How the results depend on the processing

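The 3016 genes called became 4674 with a replicate block and 1914 to 3093 when a library was left out, lowest without MC-F7 replicate 2, and 4242 with both libraries numbered 3 left out, a choice made after seeing the data. The 2 enzymes called became 4 (IDH2, IDH3A, FH and MDH2) with both libraries numbered 3 left out, 3 with DESeq2 or the replicate block (IDH3A, FH at 0.0039 with the block, and MDH2; DLD, outside the 9, also passed with the block, at 0.039), 1 (MDH2) with every gene of at least 1 count or with library size only, 0 in the 3 limma fits on TPM, and 0 to 3 when a library was left out: 0 without MC-F7 replicate 1, MC-F7 replicate 2 or MT-F7 replicate 3. The cause was not tested. The replicate numbers were not taken as pairs: deviations of same-numbered libraries correlated at 0.19, 0.089 and 0.54, and 2 of 6 libraries correlated best with their own number. Signs turned only for genes not called. In limma with log2(TPM + 0.1), log2(TPM + 1) and rescaled TPM, IDH3B became 0.080, 0.072 and 0.031 and DLST 0.10, 0.079 and 0.053, and CS became 0.022 and 0.020 in the unscaled fits. With both libraries numbered 3 left out, DLST became 0.064 and OGDHL 0.19. With a library left out, IDH3B ranged from -0.19 to 0.036, DLST from -0.10 to 0.079, OGDHL from -1.61 to 0.13 and SUCLA2 from -0.073 to 0.31. No ratio and no share changed direction. With 3 libraries a group, the 95% intervals of the 7 uncalled enzymes reached log2 fold changes as far as -0.86 (FH) and 0.63 (OGDH).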

Other observations

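Transcription regulators of mitochondrial genes were described by a list of 9 genes, of which 2 were lower in MT-F7, none was higher and 7 were not called (22.2% called, beside 23.2% of all tested genes; median log2 fold change -0.30). PPARGC1B, a coactivator of nuclear receptors that drive mitochondrial genes, measured 3.72, 2.69 and 4.16 CPM in MC-F7 and 0.637, 0.541 and 1.70 CPM in MT-F7. It fell by 1.88 on the log2 scale (edgeR adjusted p = 0.0060), without overlap, and the call held in all 17 alternative fits. ESRRA, the nuclear receptor that this coactivator family binds, measured 56.0, 49.2 and 42.9 CPM in MC-F7 and 33.2, 30.4 and 38.9 CPM in MT-F7 (log2 fold change -0.53, adjusted p = 0.033). Its call was lost without MC-F7 replicate 1 (0.110), MC-F7 replicate 2 (0.110), MT-F7 replicate 1 (0.105) or MT-F7 replicate 2 (0.138), and in the limma fits on TPM (0.095 to 0.152). PPARGC1A, the better known relative of PPARGC1B, ranged from 0.177 to 1.004 CPM across the libraries. It lay higher in all 3 MT-F7 libraries and was not called (log2 fold change 1.44, adjusted p = 0.073).

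LIPT1, a lipoyltransferase needed to attach the lipoyl arm on which DLST depends, measured 9.38, 8.79 and 9.82 CPM in MC-F7 and 5.86, 4.21 and 5.39 CPM in MT-F7. It was lower (log2 fold change -0.86, adjusted p = 0.0087), and the call held in all 17 alternative fits, whereas DLST itself was not called in any of them. LIPT1 came from a list of 8 cofactor and regulation genes, of which 2 were lower and none higher (25% called, beside 23.2% of all tested genes). In the same list, LIAS (log2 fold change -0.47, adjusted p = 0.076) and LIPT2 (-0.073, adjusted p = 0.832) were not called.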
